A study of Homo sapiens with 60 samples.

Results

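Scutellariae Radix is the dried root of Scutellaria baicalensis, a drug of East Asian medicine rich in flavones such as baicalin, baicalein and wogonin. Its water extract was given for 24 h to HT29, a long-established human cell line derived from a colorectal adenocarcinoma, at 20, 100 and 500 µg/mL, called low, medium and high dose below. The comparison described here sets the 3 libraries of the high dose (500 µg/mL) against the 3 libraries of the medium dose (100 µg/mL), 6 of the 60 messenger RNA libraries of the series, chosen by their labels. The 3 libraries of the low dose (20 µg/mL) place each change in the dose series, and the 3 vehicle libraries (DMSO at 0.1% by their labels, though the series' design text gives 2%) give the baseline. The remaining libraries hold other water extracts and wortmannin. All cells were the same line, and the labels name no genetic change. Nothing in the labels tells whether the 3 replicates were separate cultures. The p-values reflect the spread within groups over all 60 libraries, fitted together, and that spread may be technical.

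The 9 Scutellariae Radix libraries held 16.7 to 30.7 M counts (M, 1e6). The sample codes place them in one set, together with Pinelliae Tuber, while the vehicle libraries carry another code, so a difference from vehicle and a difference between sets cannot be told apart. The dose steps lie within one set. All 12 colon epithelial markers searched had counts, with a summed level of 11974 to 12484 counts per 1e6 (CPM) in the high libraries and 11477 to 12993 CPM in the medium libraries. Of 10 immune cell markers, the T and B cell genes CD3E and MS4A1 and the pan-leukocyte gene PTPRC averaged at most 0.016 CPM over the 9 libraries. The summed immune level was 1500 to 1536 CPM in the high and 1586 to 1632 CPM in the medium libraries, nearly all of it LYZ, the lysozyme gene, at a mean of 1609 CPM. Summed fibroblast markers were 2.17 to 2.83 CPM in the high and 2.64 to 3.10 CPM in the medium libraries. Endothelial markers summed to 2.27 to 2.74 CPM in the high and 3.29 to 3.50 CPM in the medium libraries, with CDH5, KDR and EMCN at 0 in all 6. Liver and neural markers summed to 1.92 to 2.01 CPM in the high and 2.02 to 2.23 CPM in the medium libraries. Whether these markers have a part in the results was not tested. In bulk RNA, fewer cells of a kind and less RNA per cell cannot be told apart.

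As background, 4 transcription programmes recur below. SREBP2, held in the endoplasmic reticulum by INSIG proteins while sterol is plentiful, turns on the enzymes that build cholesterol. ATF4 is made when amino acids run short or the endoplasmic reticulum or mitochondria are stressed, and drives amino acid transport, asparagine and serine synthesis and a set of feedback genes. The aryl hydrocarbon receptor (AhR) binds flat aromatic compounds, many plant flavonoids among them, and induces the monooxygenases CYP1A1 and CYP1B1, whereas NRF2 responds to electrophiles with glutathione, thioredoxin and NADPH enzymes.

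Between the high and the medium dose, 408 genes rose and 437 fell of 16608 tested, which is 2.46% and 2.63% of them (edgeR quasi-likelihood test, Benjamini-Hochberg adjusted p under 0.05). How many pass depends on the libraries in the fit. The 9 Scutellariae Radix libraries alone gave 616 rises and the 18 of the same code set 696. Leaving out 1 high or medium library gave 293 to 320 rises and 253 to 294 falls, the fewest of both without high replicate 1. Leaving out 1 low library, which this comparison does not use, gave 419 to 427 rises and 407 to 415 falls. The changes were small, with a median size of 0.36 on the log2 scale; 15 genes rose and 48 fell by at least 2-fold. In the step below, from low to medium, 295 genes rose (1.78%) and 261 fell (1.57%). Here the 9 Scutellariae Radix libraries alone gave 474 rises and 409 falls and the 18 of the same code set 612 and 423. Leaving out 1 medium or low library gave 169 to 245 rises and 137 to 203 falls, the fewest of both without low replicate 3. Leaving out 1 high library gave 262 to 268 rises and 248 to 253 falls. The steps share the medium libraries, so their calls are not independent, and the difference between the steps (high minus medium, less medium minus low) was tested as one contrast. By that contrast the upper step was above the lower step for 30 genes (0.181%) and below it for 74 genes (0.446%). Requiring in addition a call in the upper step and none in the lower step left 21 genes raised in the upper step only (0.126%) and 24 genes lowered in the upper step only (0.145%). These counts also moved with the libraries fitted: the 18 of the same code set gave 66 genes with the upper step above and 118 with it below, 43 raised and 39 lowered in the upper step only, and 19 genes had the upper step above without medium replicate 2. A peak at the medium dose, called upward in the lower step and downward in the upper step, was found for 24 genes (0.145%). No gene had a trough at the medium dose (0.0%), and 2 had one with the DESeq2 Wald test. At unadjusted p under 0.05 in both steps, 69 genes had a trough and 83 a peak.

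**Figure D1:**
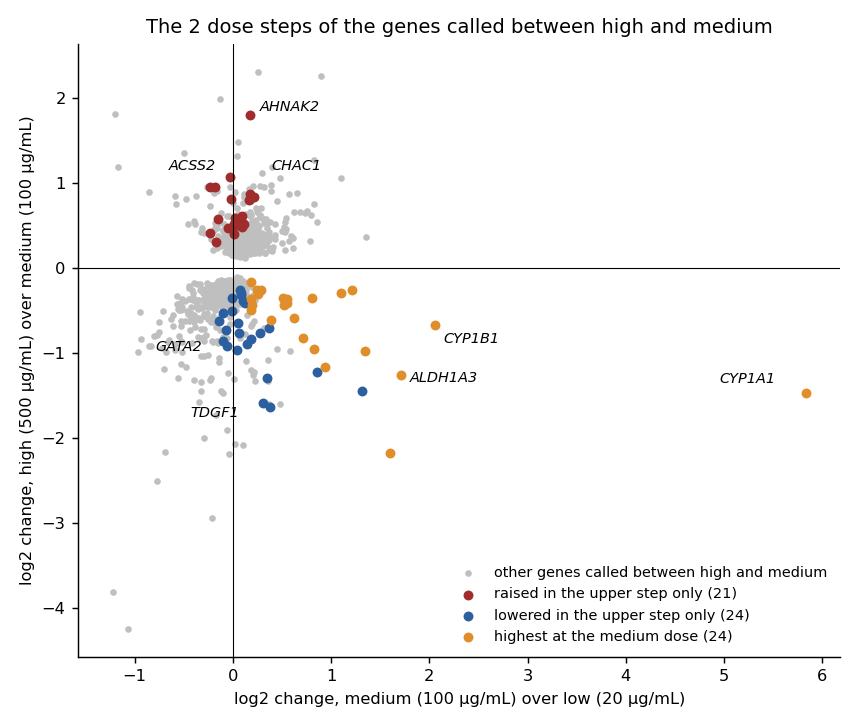
Log2 change of each gene called between the high and the medium dose, with medium over low on the x axis and high over medium on the y axis, each point a gene. The 21 genes raised and the 24 lowered in the upper step only lie near 0 on the x axis, apart from a few of very low counts, and the 24 genes highest at the medium dose lie at the lower right with CYP1A1 farthest out. Both axes use the medium libraries, so the points' positions on them are not independent.

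Among the gene lists examined, cholesterol synthesis held the most genes raised in the upper step only. Of 20 tested enzymes of the pathway, 17 rose between medium and high and none fell, with a median log2 change of 0.42 over the 20 against -0.007 over all genes. In the lower step 1 of the 20 rose, SQLE, and the median was 0.035. The step difference was called positive for 8 of the 20. Of the 21 genes raised in the upper step only, 7 were members: CYP51A1, DHCR7, MSMO1, HMGCS1, IDI1, LSS and TM7SF2. CYP51A1, DHCR7 and LSS stayed in this class in every fit that left out 1 of the 9 Scutellariae Radix libraries. MSMO1, HMGCS1, IDI1 and TM7SF2 left it in at least 1 such fit. At the high dose TM7SF2 was not called against the low dose (log2 change 0.14, adjusted p = 0.196) or vehicle (0.073, adjusted p = 0.488). Its medium over vehicle was -0.23 (adjusted p = 0.0272). The list and its name were set with earlier results of these data known.

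CYP51A1, the lanosterol 14-demethylase, had 383, 358 and 372 CPM in the high libraries, against 276, 251 and 251 CPM in the medium libraries. The ranges did not overlap, which held for 839 of the 845 genes called in this step. The log2 change was 0.52 ± 0.038 (standard error, adjusted p = 4.75e-15). Its mean was 234 CPM in vehicle cells and 239 CPM at the low dose, and medium over low was 0.11 (adjusted p = 0.0912). Medium over vehicle was 0.14 (adjusted p = 0.012). DHCR7, which makes cholesterol from 7-dehydrocholesterol in the last step, had 645, 620.5 and 642 CPM in the high libraries, against 449, 461 and 429.8 CPM in the medium libraries. Its log2 change was 0.51 ± 0.051 in the upper step (adjusted p = 1.39e-10) and 0.011 in the lower step (adjusted p = 0.973). IDI1, the isopentenyl diphosphate isomerase, had 248, 251 and 241 CPM in the high libraries, against 186, 168 and 178 CPM in the medium libraries, with no overlap. SQLE, the squalene epoxidase, had 1216, 1195 and 1209.9 CPM at high, against 904, 849 and 873 CPM at medium dose, and it had risen in both steps, by 0.46 and 0.17, the upper the larger (adjusted p of the step difference = 0.0153). Of the 3 members that did not pass, EBP and PMVK had log2 changes of 0.25 and 0.0058.

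Genes that control sterol supply gave 4 rises and 2 falls among 12 tested. INSIG1, the retention protein that is itself an SREBP target, had 270.3, 259.6 and 264 CPM in the high libraries, against 185, 176 and 179.9 CPM in the medium libraries. The change was 0.56 ± 0.056 (adjusted p = 1.78e-10), and the lower step was 0.040, so INSIG1 moved in the upper step only. STARD4, a sterol carrier, was another riser, by 0.44. The falling members were MYLIP, a ubiquitin ligase (-0.24, adjusted p = 0.0291), and ABCA1, the cholesterol exporter (-0.63, adjusted p = 0.0269), both named after their values were seen.

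In fatty acid synthesis 4 of 11 tested genes rose and none fell. ACSS2, which makes acetyl-CoA from acetate in the cytosol and nucleus, had 48.1, 46.7 and 48.2 CPM in the high libraries, against 22.7, 21.5 and 24.1 CPM in the medium libraries. That is 2.09-fold (log2 change 1.07 ± 0.065, adjusted p = 7.98e-18), and the medium value was close to 23.2 CPM at the low dose and 22.4 CPM in vehicle cells. SCD, the stearoyl-CoA desaturase, and ACLY, the ATP citrate lyase, rose by 0.32 and 0.24, and ME1, the cytosolic malic enzyme, by 0.36 in the upper and 0.38 in the lower step. LPIN1, a phosphatidate phosphatase outside these lists, was also raised in the upper step only, with 49.9, 48.7 and 48.0 CPM at high, against 29.1, 28.5 and 26.2 CPM at medium dose (log2 change 0.81 ± 0.069, adjusted p = 7.48e-13).

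**Figure D2:**
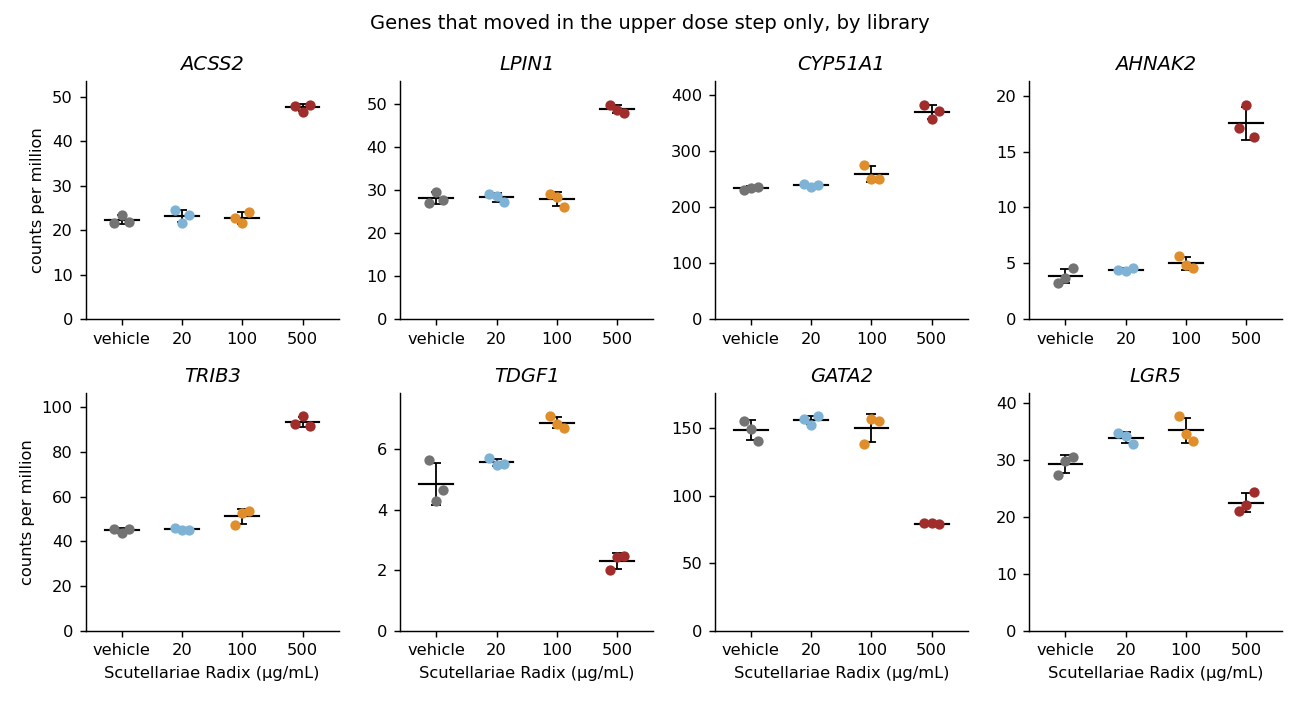
Counts per 1e6 of 8 genes that moved in the upper dose step only, per library, at vehicle, 20, 100 and 500 µg/mL; horizontal lines are means and bars SD of 3 libraries. ACSS2, LPIN1, CYP51A1, AHNAK2 and TRIB3 are highest at 500 µg/mL, CYP51A1 being also slightly higher at 100 µg/mL than in vehicle, and TDGF1, GATA2 and LGR5 are lowest there.

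The promoters of the cholesterol enzymes were searched because these genes moved together. RefSeq windows of 250 bases before to 50 after the gene's start (GRCh38.p14) were at hand for 15 of the 20. The motif CCAAT, the box bound by NF-Y, was found on either strand in 13 of the 15, against 42.79% of the 11232 tested genes with a window. The motif GCGTG, the core of the xenobiotic response element, was likewise in 13 of the 15, against 56.73% of all, so a share above that of all genes was not particular to CCAAT. The sterol regulatory element TCACNCCAC was found in none of the 15 and in 1.46% of all. A match is a description of the letters and not a binding site. One site of each of 5 genes raised in the upper step only is shown on the strand of the gene, with the motif in capitals (ATTGG is CCAAT on the opposite strand).
HMGCS1, chr5:43313498-43313522 (minus strand): accggccgcgATTGGctgtgggagc
IDI1, chr10:1048959-1048983 (minus strand): ggcgcgagcgATTGGctgcgcggcc
DHCR7, chr11:71448473-71448497 (minus strand): ggctcctcgaCCAATcacggggcgc
LSS, chr21:46228910-46228934 (minus strand): cggcgctctgATTGGttgcgtgggc
MSMO1, chr4:165327583-165327607 (plus strand): actgcacagaCCAATcaccgcgccg

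Of 22 tested ATF4 and stress response genes, 13 rose in the upper step and none fell (median log2 change 0.33). In the lower step 5 of the 22 rose, with a median of 0.12, and the step difference was positive for 3. TRIB3, a pseudokinase that feeds back on ATF4, had 92.7, 95.9 and 91.7 CPM in the high libraries, against 47.5, 52.5 and 53.7 CPM in the medium libraries. The high libraries lay far above the rest (log2 change 0.87 ± 0.064, adjusted p = 6.17e-15), while the lower step was 0.17 (adjusted p = 0.164). CHAC1, which breaks down glutathione, had 6.62, 8.53 and 7.10 CPM at high, against 3.48, 3.84 and 2.84 CPM at medium dose (2.16-fold, adjusted p = 1.29e-07). ATF3, a stress-induced factor of the ATF family, had 6.17, 6.41 and 6.00 CPM at high, against 2.87, 3.94 and 2.73 CPM at medium dose, with a log2 change of 0.95 ± 0.15 (adjusted p = 6.24e-06). ASNS, the asparagine synthetase, rose in both steps, by 0.71 in the upper and 0.24 in the lower, the upper being the larger (adjusted p of the step difference = 0.00942). SESN2, an inhibitor of mTORC1 signalling, was raised in the upper step only, with 14.8, 14.9 and 16.7 CPM at high, against 11.97, 9.90 and 9.37 CPM at medium dose. PPP1R15A, the regulatory subunit that directs dephosphorylation of eIF2α, and DDIT4, another mTORC1 inhibitor, rose by 0.62 and 0.62. NIBAN1, a gene induced under such stress, was also among the 12 largest rises, with 6.93, 6.99 and 9.08 CPM at high, against 4.74, 3.45 and 4.01 CPM at medium dose.

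Amino acid transporters followed with 7 of 12 rising and none falling. SLC7A11, the cystine and glutamate exchanger, had 437, 442 and 437 CPM in the high libraries, against 332, 299 and 275 CPM in the medium libraries. It had climbed in both steps, by 0.54 in the upper and 0.86 in the lower, and its step difference was not called (adjusted p = 0.435). Its partner chain SLC3A2, the leucine carrier SLC7A5 and the glutamine carrier SLC38A2 rose by 0.38, 0.35 and 0.35 between medium and high. Of 16 aminoacyl-tRNA synthetases 3 rose (WARS1, SARS1 and YARS1, by 0.26, 0.20 and 0.12). Of 18 chaperones of the endoplasmic reticulum 2 rose (DNAJB9 by 0.38 and HYOU1 by 0.13), where 2.46% of all genes rose. The calls of SARS1, YARS1, DNAJB9 and HYOU1 were lost when single libraries were left out.

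The C/EBP-ATF response element TGATGNAA occurred in the windows of 4 of 16 ATF4-list genes, against 2.8% of all. They are shown on the strand of the gene with the motif in capitals; the CHAC1 match runs on the opposite strand. CEBPG did not pass the test (0.10, adjusted p = 0.262).
ASNS, chr7:97872459-97872486 (minus strand): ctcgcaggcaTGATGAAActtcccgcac
ATF3, chr1:212565206-212565233 (plus strand): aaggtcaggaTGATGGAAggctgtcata
CEBPG, chr19:33374061-33374088 (plus strand): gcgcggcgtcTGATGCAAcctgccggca
CHAC1, chr15:40953252-40953279 (plus strand): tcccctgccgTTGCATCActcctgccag

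Among other genes raised in the upper step only, AHNAK2, a giant scaffold protein of the AHNAK family, changed the most. It had 17.1, 19.2 and 16.3 CPM in the high libraries, against 5.66, 4.81 and 4.56 CPM in the medium libraries, 3.49-fold (log2 change 1.80 ± 0.15, adjusted p = 3.19e-13). Vehicle and low-dose cells averaged 3.84 and 4.42 CPM, so that the high libraries stood apart from the other 9. CDKN1A, the cell cycle inhibitor p21, had 30.9, 30.7 and 30.6 CPM at high, against 16.7, 18.1 and 17.0 CPM at medium dose (log2 change 0.83 ± 0.076, adjusted p = 1.02e-11). It is one of 19 p53 targets tested, of which 3 rose (with SESN2 and PLK3) and 2 fell (SESN1 and BTG2). Among all genes 2.46% rose and 2.63% fell. VEGFA, the angiogenic growth factor, had 102, 107 and 109 CPM at high, against 70.7, 70.5 and 70.8 CPM at medium dose (log2 change 0.59 ± 0.050, adjusted p = 6.31e-13). Of 17 hypoxia-induced genes tested it rose with SLC2A1, the glucose transporter, and none fell. TGFB1, PDLIM7 and TRIB1, which encode a cytokine, an actin-binding adaptor and a pseudokinase, rose by 0.61, 0.80 and 0.40. LINC03040, a noncoding RNA by its symbol but protein-coding in the gene annotation used here, rose to 9.90 ± 0.637 CPM. At medium dose it had 5.15 ± 0.308 CPM (SD, n = 3 each). IGFL4, an insulin growth factor-like gene, rose by 0.41. At the high dose IGFL4 was not called against the low dose (0.18, adjusted p = 0.191) or vehicle (0.15, adjusted p = 0.259). CDKN1A, TGFB1, PDLIM7 and IGFL4 left the upper-step-only class in at least 1 fit that left out 1 Scutellariae Radix library.

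Of 24 immediate-early genes and feedback genes of ERK signalling, 9 rose and none fell, and in the lower step 7 rose and 1 fell. DUSP5, a nuclear ERK phosphatase, had 12.6, 12.7 and 10.9 CPM at high, against 5.54, 5.47 and 6.34 CPM at medium dose (log2 change 1.06 ± 0.11, adjusted p = 2.84e-10). FOSB, FOSL1 and FOS, subunits of AP-1, rose by 0.78, 0.45 and 0.30, the call of FOS being lost without high replicate 3 (adjusted p = 0.0511). Of 17 NF-kB targets and chemokines, 5 rose and 1 fell. CXCL8, the neutrophil chemokine, had 8.72, 8.53 and 6.50 CPM at high, against 4.05, 3.94 and 4.74 CPM at medium dose (log2 change 0.89 ± 0.14, adjusted p = 5.24e-06), and the lower step was 0.026; its step difference was not called (adjusted p = 0.115). In Pinelliae Tuber, the other extract of the same code set, CXCL8 changed by 0.84 from medium to high (adjusted p = 0.000329), and the difference from the mean of the 4 other extracts was not called (0.33, adjusted p = 0.391). ICAM1 and NFKB2, an adhesion molecule and an NF-kB subunit, rose by 0.45 and 0.43. Of 20 glycolysis genes 6 rose and none fell, led by ALDOC, an aldolase, at 0.63.

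Of the 24 genes lowered in the upper step only, several lists held 1 each. They were Wnt targets and stem cell genes (LGR5), tight junctions (CLDN2), drug efflux pumps (ABCG2), endothelial markers (TEK) and NF-kB targets and chemokines. Some of the 24 were already above vehicle at the medium dose, a difference that cannot be told apart from that between code sets. TDGF1, the growth factor co-receptor Cripto, had 2.00, 2.44 and 2.45 CPM in the high libraries, against 7.07, 6.83 and 6.71 CPM in the medium libraries. The log2 change was -1.59 ± 0.12 (adjusted p = 1.57e-14), and vehicle and low-dose cells averaged 4.86 and 5.56 CPM; medium over vehicle was 0.52 (adjusted p = 0.00117). GATA2, a zinc finger transcription factor, had 79.6, 79.6 and 79.2 CPM at high, against 138, 157 and 156 CPM at medium dose (log2 change -0.92 ± 0.057, adjusted p = 1.21e-17). The 9 vehicle, low and medium libraries all lay between 138 and 159 CPM of GATA2. Its antisense neighbour GATA2-AS1 fell by 0.73 on the log2 scale; the strand used in counting is not stated, so reads of the pair cannot be told apart with certainty. LGR5, the R-spondin receptor that marks intestinal stem cells, had 20.95, 22.1 and 24.3 CPM at high, against 37.6, 34.6 and 33.4 CPM at medium dose (log2 change -0.65 ± 0.060, adjusted p = 1.18e-11), and its medium over vehicle was 0.26 (adjusted p = 0.00227). LGR5 and PROM1 (-0.20) were the 2 called of 14 Wnt targets and stem cell genes, and both fell; PROM1 had also fallen from low to medium (-0.36, adjusted p = 5.8e-06), and its upper-step call was lost in several fits that left out 1 library (adjusted p up to 0.174). CLDN2, the cation-selective claudin of leaky epithelia, fell to 89.3 ± 0.921 CPM, against 127 ± 2.90 CPM at medium dose (SD, n = 3 each). MEIS2, a homeobox factor, and ROR1, a Wnt receptor, decreased by 0.63 and 0.54 on the log2 scale.

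Metabolic genes in the same group were ALDH1L1, which removes formyl groups from tetrahydrofolate, DPYD, which starts pyrimidine breakdown, the dehydrogenase DHRS2 and the sulphotransferase UST. ALDH1L1 had 4.69, 4.29 and 4.54 CPM at high, against 8.07, 9.24 and 7.95 CPM at medium dose (log2 change -0.90 ± 0.10, adjusted p = 8.12e-09). DPYD, DHRS2 and UST changed by -0.77, -0.86 and -0.77. Medium over vehicle was 0.43 for ALDH1L1 and 0.43 for UST (adjusted p = 0.00383 and 0.000578). PLAC8, a small cysteine-rich protein, had 2.76, 3.34 and 2.88 CPM at high, against 5.05, 6.94 and 5.36 CPM at medium dose. The drug exporter ABCG2, the peptidase ERAP2, the factor IRF1, the peptide hormone gene EDN1 and the matrix gene TGFBI also fell. Their falls were in this step only, by 0.29 to 0.41 on the log2 scale. ALDH1L1 and ERAP2 stayed in the class in every fit that left out 1 of the 9 Scutellariae Radix libraries. DPYD, DHRS2, UST, PLAC8, ABCG2, IRF1, EDN1 and TGFBI left it in at least 1 such fit. On the log2 scale and against vehicle, ABCG2 was 0.20 at medium (adjusted p = 0.0108) and -0.091 at high dose (adjusted p = 0.234). The endothelial receptor gene TEK was in the group with 0.138, 0.265 and 0.597 CPM at high, against 0.841, 1.01 and 1.39 CPM at medium dose, levels that rest on few reads.

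CYP1A1 was the clearest of the 24 genes that peaked at the medium dose. It had 58.1, 54.7 and 58.2 CPM in the high libraries, against 152, 159 and 167 CPM in the medium libraries. The means were 0.563 CPM in vehicle cells and 2.89 CPM at the low dose, so a rise of 5.83 on the log2 scale from low to medium was followed by a log2 change of -1.48 ± 0.088 to high dose (adjusted p = 4.55e-38 and 3.9e-18). Every high library stayed above every low-dose and vehicle library. CYP1B1 had 286, 286 and 278 CPM at high, against 468, 449 and 439 CPM at medium dose, and 48.0 and 109 CPM on average in vehicle and low-dose cells. Its log2 change was 2.05 in the lower and -0.68 ± 0.077 in the upper step (adjusted p = 4.68e-09). ALDH1A3, a retinaldehyde dehydrogenase that makes retinoic acid, had 49.4, 46.7 and 49.5 CPM at high, against 114, 119 and 116 CPM at medium dose. It fell by 1.26 ± 0.067 on the log2 scale (adjusted p = 3.79e-20) after a rise of 1.71, from means of 20.4 CPM in vehicle and 35.8 CPM in low-dose cells. For these 3 genes low-dose replicate 1 was the highest of its group, with 4.00, 138 and 41.3 CPM.

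**Figure D3:**
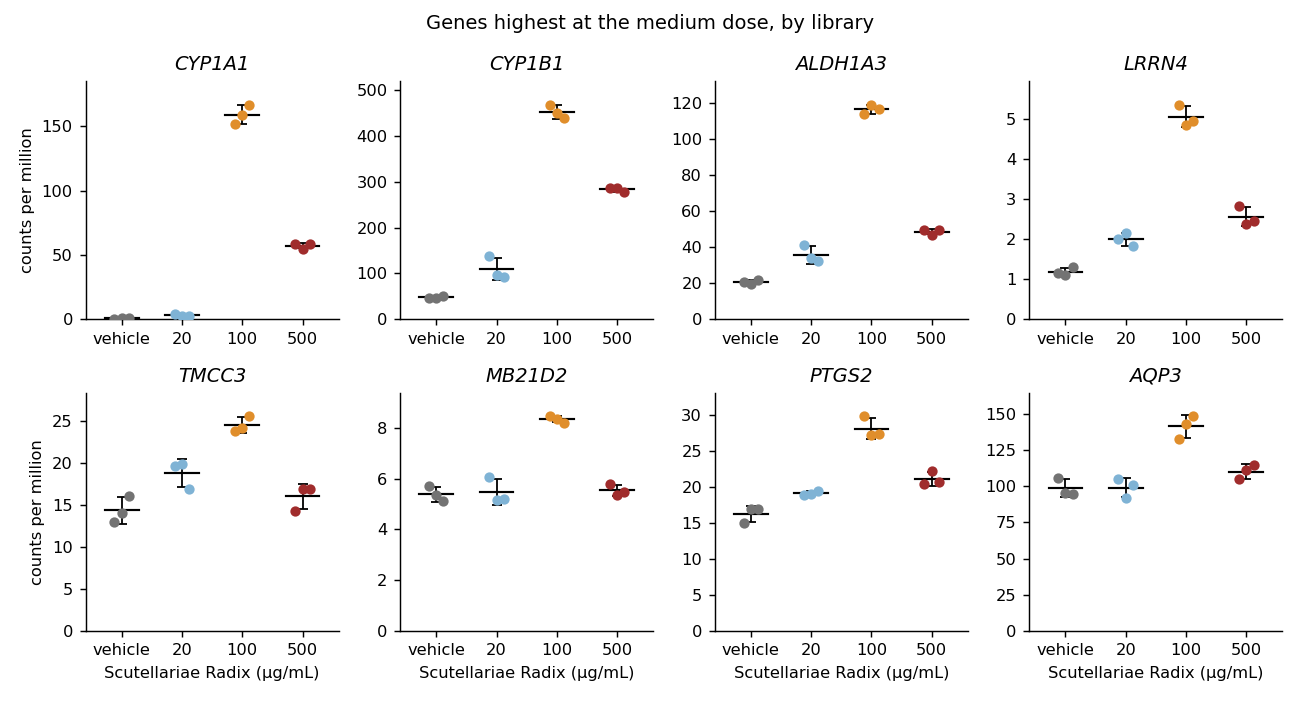
Counts per 1e6 of 8 genes that peaked at the medium dose, per library, at vehicle, 20, 100 and 500 µg/mL; horizontal lines are means and bars SD of 3 libraries. The 3 libraries at 100 µg/mL lie above all libraries at 500 µg/mL for each gene, and MB21D2 at 500 µg/mL is near its vehicle level.

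The AhR list as a whole was split at the upper step. Of 9 tested members 7 rose from low to medium and none fell, whereas from medium to high 2 rose and 2 fell, with a median of -0.024, and the step difference was negative for 4. CYP1A1 and CYP1B1 were the members that fell. ALDH3A1, an aldehyde dehydrogenase, had 77.0, 77.4 and 78.0 CPM at high, against 56.3, 64.8 and 60.4 CPM at medium dose, a rise of 0.36 after one of 1.36 (adjusted p of the step difference = 1.33e-05). SLC7A5, counted above among the transporters, was the other riser. TIPARP, the AhR-induced ADP-ribosyltransferase named here after its values were seen, had 200.2, 194 and 195 CPM at high, against 230.1, 209 and 207 CPM at medium dose; it did not pass in the upper step (-0.13, adjusted p = 0.527) after a rise of 1.09. AHRR, the repressor of the receptor, averaged 5.54 ± 0.148 CPM at high and 5.62 ± 0.235 CPM at medium dose (SD, n = 3 each; adjusted p = 0.979).

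The core of the xenobiotic response element, GCGTG, was present on either strand in 8 of the 17 peak genes with a promoter window, which is 47.06%, against 56.73% of all genes with one. The match of CYP1A1 lies close to its start, and that of ALDH1A3 is given beside it, on the strand of the gene with the motif in capitals.
CYP1A1, chr15:74725571-74725595 (minus strand): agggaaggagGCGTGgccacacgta
ALDH1A3, chr15:100879778-100879802 (plus strand): cgggcgggagGCGTGgggcgctgca

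The other peak genes moved less. LRRN4, a leucine-rich repeat membrane protein, had 2.83, 2.38 and 2.45 CPM at high, against 5.35, 4.85 and 4.96 CPM at medium dose (log2 change -0.98 ± 0.17, adjusted p = 4.86e-05). PTGS2, the inducible cyclooxygenase, had 20.4, 22.2 and 20.6 CPM at high, against 29.8, 27.2 and 27.3 CPM at medium dose. It changed by -0.42 ± 0.077 (adjusted p = 0.000155) after 0.55 in the lower step, and 2 further genes of arachidonate metabolism fell in the upper step, PLA2G4A (-0.27) and ALOX5 (-0.30), whose calls were lost when single libraries were left out. AQP3, a channel for water and glycerol, had 105, 111 and 115 CPM at high, against 133, 143 and 148 CPM at medium dose (log2 change -0.36 ± 0.058, adjusted p = 1.21e-05). TMCC3 and MB21D2 fell by 0.61 and 0.59 on the log2 scale; MB21D2 averaged 5.54 ± 0.227 CPM at high and 8.34 ± 0.125 CPM at medium dose (SD, n = 3 each), and its vehicle mean was 5.39 CPM. BMF, a BH3-only protein that promotes apoptosis, averaged 8.55 ± 0.627 CPM at high and 11.01 ± 0.160 CPM at medium dose (SD, n = 3 each; log2 change -0.37, adjusted p = 0.0179), a call lost without high replicate 1, medium replicate 1 or medium replicate 2. The kinase PIM1 and the adhesion receptor ADGRF1 had large lower steps (1.10 and 1.21) and small upper steps (-0.30 and -0.27), so they stayed well above the low dose. POU2F3, the transcription factor of tuft cells, had 1.59, 1.32 and 1.46 CPM at high, against 3.02, 3.07 and 3.79 CPM at medium dose. ALDH1A3-AS1, antisense to ALDH1A3, fell by 0.82, with the same limit on strand as GATA2-AS1. The rest, among them the transcription factor gene TBX3, the serotonin receptor gene HTR1D, CABLES1, ARHGAP18, RNF141 and PPFIBP2, fell by 0.17 (KIAA0930) to 0.50 (PPFIBP2), apart from 2 genes under 2 CPM that fell further. Without high replicate 1 or without medium replicate 1, 15 of the 24 were called.

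NRF2 targets rose in both steps and so belong to neither pattern. Of 26 tested members 19 rose in the upper step and 21 in the lower step, none fell in either, and the medians were 0.34 and 0.48. The step difference was negative for 2, GCLM and TXNRD1, whose lower step was the larger, and positive for none. GCLM, the modifier subunit of glutamate-cysteine ligase, had 147, 136 and 130.4 CPM at high, against 118, 112 and 104 CPM at medium dose (0.31 after 0.79, adjusted p of the difference = 0.00659). AKR1B10, an aldo-keto reductase, had 303, 311 and 308 CPM at high, against 204, 205 and 192 CPM at medium dose, 0.62 ± 0.069 after 0.79. AKR1C1 was among the 12 largest rises (38.5 ± 2.50 CPM at high and 21.1 ± 0.934 CPM at medium dose, SD, n = 3 each), but it shares near-identical sequence with AKR1C2 and AKR1C3, and the division of reads between them is uncertain. HMOX1, the haem oxygenase, and GCLC, the catalytic partner of GCLM, rose by 0.66 and 0.43. The antioxidant response element TGACNNNGC was found in 6 of 17 NRF2-list windows, against 19.23% of all.
GCLM, chr1:93909446-93909474 (minus strand): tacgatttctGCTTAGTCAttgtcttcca
TXNRD1, chr12:104286920-104286948 (plus strand): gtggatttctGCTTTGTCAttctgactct
In both the capitals are the motif read on the opposite strand.

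**Figure D4:**
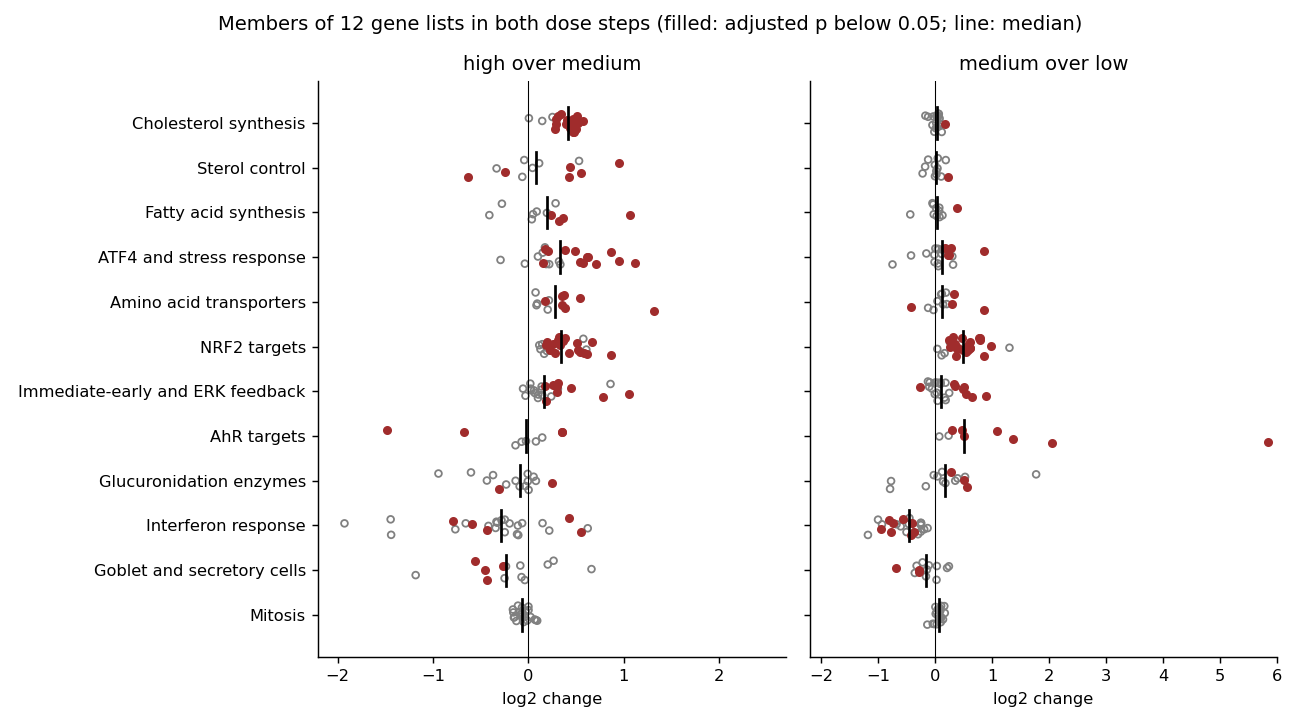
Log2 change of each tested member of 12 gene lists, high over medium on the left and medium over low on the right; filled points have an adjusted p under 0.05 and vertical lines are medians. Cholesterol synthesis members lie to the right of 0 on the left (17 of 20 filled) and around 0 on the right (1 filled), while NRF2 members lie to the right of 0 in both (19 and 21 of 26 filled).

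Several of the largest falls ran through both steps. CLEC3A, a C-type lectin gene, had 37.3, 36.5 and 38.9 CPM at high, against 77.4, 75.4 and 78.2 CPM at medium dose (log2 change -1.03 ± 0.049, adjusted p = 7.66e-22), and 99.3 and 94.5 CPM on average in vehicle and low-dose cells. NOX1, the NADPH oxidase of colon epithelium, had 3.83, 4.82 and 4.21 CPM at high, against 8.56, 7.85 and 8.97 CPM at medium dose, -0.996 ± 0.10 after -0.96 in the lower step. GABRP, a subunit of the GABA-A receptor, changed by -0.92 in the upper and -0.86 in the lower step. RARRES1 and PLAAT4, both known as retinoid-responsive genes, fell in the upper step, with log2 changes of -1.03 and -1.03, their lower steps not called (adjusted p = 0.34 and 0.37). Of 13 goblet and secretory cell genes 4 fell and none rose: CREB3L1, an endoplasmic reticulum-bound factor (-0.56), REG4 (-0.46), FCGBP (-0.44) and AGR2 (-0.26). Of 15 enterocyte genes 3 rose (KRT20 by 0.41, CEACAM5 by 0.47 and CEACAM6 by 0.24) and 2 fell (VIL1 by 0.21 and CDX2 by 0.43). The calls of FCGBP, AGR2, CEACAM6 and CDX2 were lost when single libraries were left out.

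Of 25 interferon response genes 2 rose and 3 fell in the upper step, after 0 rises and 8 falls in the lower step. The median log2 change was -0.281 in the upper and -0.452 in the lower step. At unadjusted p under 0.05 in the upper step 2 were higher and 15 lower, against 2351 of 16608 genes in either direction. IFIT2 had 4.55, 4.77 and 4.68 CPM at high, against 2.83, 3.24 and 3.46 CPM at medium dose (0.55, adjusted p = 0.0177), and OASL rose by 0.43, calls that were lost when single libraries were left out. MX1, IFITM3 and HERC6 fell by 0.79, 0.59 and 0.43. Lysosome and autophagy genes gave 4 rises, among them NPC1, which exports cholesterol from lysosomes (0.46), and 1 fall, CTSB, of 19; the CTSB call was lost when single libraries were left out.

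The lists of the growth machinery are short. Over all genes 2.46% rose and 2.63% fell at adjusted p under 0.05, so a list of this length with no such call lies near that share. At unadjusted p under 0.05 the number was 2351 of 16608 genes. The unadjusted counts below are to be read against that larger share. None of 22 mitosis genes was called (median -0.067), with 4 lower at unadjusted p under 0.05. None was called among 22 cytosolic ribosomal proteins, 24 nuclear oxidative phosphorylation genes, 13 mitochondrially encoded proteins, 22 proteasome subunits, 14 snoRNA hosts and 12 replication-dependent histones, and none of these had an unadjusted p under 0.05. In the 14 heat shock genes 3 were higher at unadjusted p under 0.05 and none was called. The DESeq2 Wald test called 2 of these 143 genes. Of 24 DNA replication genes 1 rose, CDC6, by 0.24, and 2 fell, among them MCM6, by 0.24.

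The high-against-medium change of Scutellariae Radix was also set against the mean high-against-medium change of the 4 other water extracts with those 2 doses (Zingiberis Rhizoma Recens, Zingiberis Rhizoma, Pinelliae Tuber and Zizyphi Fructus), tested as one interaction contrast. It was above theirs for 177 genes (1.07%) and below for 205 genes (1.23%). Leaving out 1 high or medium library of Scutellariae Radix gave 112 to 154 genes below. The counts were 112, 120, 127, 131 and 132 without high replicate 1, high replicate 2, medium replicate 3, medium replicate 2 and high replicate 3. Leaving out 1 of its low libraries, which this contrast does not use, gave 185 to 187 genes below. Cholesterol synthesis gave 18 of 20 members above and none below, and the ATF4 list 9 of 22 above and none below. NRF2 targets gave 4 of 26 above. CYP1A1 changed by 0.79 on the log2 scale on average in the other extracts, against -1.48 here, a difference of -2.27 ± 0.19 (adjusted p = 6.23e-13). In Pinelliae Tuber alone its change was 0.87 and was not called. Its vehicle mean was 0.563 CPM and its levels in the other extracts are not given here, so these changes may start from unlike levels. ACSS2 changed by 1.07 here and -0.12 on average in the others (difference 1.19 ± 0.07, adjusted p = 2.51e-17). TDGF1 changed by -1.59 here and 0.029 in the others, and AHNAK2 by 1.80 and 0.12. This contrast uses the same 6 Scutellariae Radix libraries as the comparison above and is not independent of it. Of the other extracts only Pinelliae Tuber carries the same set code.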

How the data were processed

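Expected counts of genes, unscaled, were deposited by the authors. The submitters' processing notes name RSEM 1.3.3, STAR 2.7.3a, Trim Galore 0.6.5, FastQC 0.11.9 and the build GRCh38; the annotation and strand setting are not given in the sources used here. Per the labels, libraries came from a directional kit and were read as pairs of 100 bp. The 8.755% of values that were not whole were rounded. The table's other 210 columns were not used. Libraries held 11.1 to 34.5 M counts (M, 1e6), and no pair of libraries was a copy of another (smallest chi-square per gene 2.04). Counts were fitted in edgeR 4.0.16 (R 4.3.3) with TMM scaling, filterByExpr and robust quasi-likelihood tests over all 60 libraries (40 residual degrees of freedom, 16608 genes), p-values adjusted over all genes tested. The standard error of a log2 change is its size divided by the root of the F statistic. The fit was tested on simulated counts. CPM values of genes in the dose comparisons are counts per 1e6 after TMM scaling. The summed marker levels and the marker gene means given with them are counts per 1e6 without TMM.

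Members, gene lists and motifs were chosen with earlier results of these data known. Named genes were called, non-overlapping and at least 5 CPM: the 12 largest changes in each direction, 6 of each upper-step class, 10 peak genes, 5 of each direction of the interaction, and up to 4 of each list by p. Some genes that met these rules are not reported here. Peak and interaction genes needed no separate ranges, and list members no minimum. Gene names came from a reference table (56558 of 60675 identifiers), and promoter windows from RefSeq (GRCh38.p14). Alternatives were DESeq2 size factors, no filter, DESeq2 1.42.0, only the 9 or 18 libraries nearest to the comparison, the replicate number as a block, and each library left out.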

Additional observations from a re-analysis of the deposited data

Results flagged for a closer look

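The high-against-medium change differed from the mean change of the 4 other extracts at the same doses, by an interaction contrast in the edgeR fit, for 177 genes above and 205 genes below, of which 8 are named. Large positive differences were those of AHNAK2 (1.69 on the log2 scale, adjusted p = 3.39e-10), ACSS2 (1.19, adjusted p = 2.51e-17) and LINC03040 (1.12, adjusted p = 3.14e-08). In each the 3 high libraries of Scutellariae Radix lay above the 3 medium libraries. The 5 with the largest negative differences were CYP1A1 (-2.27, adjusted p = 6.23e-13), TDGF1 (-1.62, adjusted p = 6.23e-13), ALDH1A3 (-1.40, adjusted p = 3.49e-19), LRRN4 (-1.30, adjusted p = 1.52e-05) and RARRES1 (-1.06, adjusted p = 1.27e-06). In each of these the 3 high libraries lay below the 3 medium libraries. Such separate ranges held for 839 of the 845 genes called between high and medium, so they do not set the named genes apart. The ranking covers genes with at least 5 CPM at the high or medium dose. The interaction shares its Scutellariae Radix libraries with the comparison of the report.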

How the results depend on the processing

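All 116 named genes called between high and medium kept their direction under every alternative, and 92 also kept their call under all 16; the other 24 lost it under at least 1, mostly when single libraries were left out. The counts of calls rest on the libraries that share the fit. With the 9 Scutellariae Radix libraries only, 616 genes rose between medium and high, 474 rose and 409 fell between low and medium, 53 genes had the upper step above the lower, 37 were raised in the upper step only and 5 had a trough. With the 18 libraries of the same code set only, the numbers were 696 rises between medium and high, 612 rises and 423 falls between low and medium, 66 genes with the upper step above and 118 below the lower, 43 raised and 39 lowered in the upper step only and 7 with a trough. Without 4 libraries far from the rest on principal component 2 (vehicle replicate 1, Zingiberis Rhizoma Recens low replicate 1, Zingiberis Rhizoma high replicate 2 and Zizyphi Fructus high replicate 3), an alternative chosen after seeing the data, 672 genes rose between medium and high, 522 rose and 449 fell between low and medium, 74 genes had the upper step above and 114 below the lower, 45 were raised in the upper step only and 5 had a trough. With no filter on low counts, 46 genes had the upper step above the lower, 38 were lowered in the upper step only and 15 had a trough. DESeq2 size factors gave 1 gene with a trough and the DESeq2 Wald test 2. The cause of these shifts was not tested.

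Leaving out 1 high or medium library gave 293 to 320 rises and 253 to 294 falls between medium and high. Leaving out 1 low library gave 419 to 427 rises and 407 to 415 falls. Falls were 253, 291 and 285 without high replicates 1, 2 and 3, and 291 and 287 without medium replicates 2 and 3. Between low and medium, leaving out 1 medium or low library gave 169 to 245 rises (175 without medium replicate 1 and without low replicate 2, 169 without low replicate 3). Falls were then 137 to 203 (170 without medium replicate 1, 137 without low replicate 3). Without 1 high library, 262 to 268 rose and 248 to 253 fell. Leaving out any 1 of the 9 libraries gave 19 to 31 genes with the upper step above the lower (19 without medium replicate 2). The peak then held 15 to 21 genes (15 without high replicate 1 or medium replicate 1) and the trough 0 to 2. Genes below the other extracts numbered 112 to 154 without 1 high or medium library, and 185 to 187 without 1 low library. They numbered 112, 120 and 132 without high replicates 1, 2 and 3, and 131 and 127 without medium replicates 2 and 3. In every one of these fits 12 of the 24 peak genes, 12 of the 21 raised and 9 of the 24 lowered genes were called. Among them were CYP1A1, CYP1B1, ALDH1A3, PTGS2, AQP3, ACSS2, AHNAK2, TDGF1, GATA2 and LGR5. Raised genes that left their class in at least 1 fit were MSMO1, HMGCS1, IDI1, TM7SF2, SESN2, CDKN1A, TGFB1, PDLIM7 and IGFL4. Lowered genes that did so included DPYD, DHRS2, UST, PLAC8, ABCG2, IRF1, EDN1, TGFBI, TEK and GATA2-AS1.

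Replicate numbers are shared between groups, but same-numbered libraries of the high and medium dose had deviations that correlated at 0, -0.006 and 0.027, so the numbers were not taken as pairs. With the replicate block 439 genes rose and 471 fell between medium and high, and 1 gene had a trough; MT1E was the named gene whose call was lost under it. Low counts limit the calls of genes near 1 CPM.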

Other observations

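Iron and haem genes moved in both directions between the high and the medium dose. Of 12 tested, 4 rose: HMOX1, FTL and FTH1, the last 2 of which encode the ferritin chains and have processed pseudogenes that may share reads, and ALAS1, the first enzyme of haem synthesis. SLC40A1, the iron exporter ferroportin, was the 1 that fell. SLC40A1 averaged 78.8 ± 2.13 CPM at high and 100.2 ± 1.43 CPM at medium dose (SD, n = 3 each), a log2 change of -0.35 (adjusted p = 5.51e-05). ALAS1 averaged 71.8 ± 0.607 CPM at high and 57.1 ± 0.763 CPM at medium dose (SD, n = 3 each), a log2 change of 0.33 (adjusted p = 6.22e-06).

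Glucuronidation genes, which conjugate flavones and other phenols, gave 1 rise and 1 fall of 15 tested. Among all genes 2.46% rose and 2.63% fell, so these counts from a short list lie near that share. UGDH, which makes UDP-glucuronic acid, rose by 0.25 (adjusted p = 0.000248), and SLC35B3, a carrier of the sulphate donor PAPS, fell by 0.30, a call lost when single libraries were left out. UGT1A1, chosen after its values were seen, averaged 69.6 ± 1.33 CPM at high and 70.0 ± 3.20 CPM at medium dose (SD, n = 3 each). It had risen by 0.56 from low to medium, and its step difference was called (adjusted p = 0.00163); the UGT1A genes share exons, so their reads cannot be divided with certainty. Tight junction genes gave 2 falls of 13 (2.63% of all genes fell), CLDN2 and CLDN1 (-0.35, adjusted p = 5.04e-05).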
